A study of Mus musculus with 10 samples.

Results

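The miR-183, miR-96 and miR-182 cluster is a set of 3 miRNA hairpins, Mir183, Mir96 and Mir182, that lie side by side on mouse chromosome 6. It was chosen by a measured value, the share of reads with the length (26 to 29 nt) and first base (U) of a fetal piRNA that its Mir182-5p arm supplied, and it holds 3 of the 1174 miRNA hairpins of the GENCODE vM21 annotation. Its members were found by matching reads of 18 to 29 nt to the 3 hairpins in sense, with the first 18 nt exact and any 3′ bases after them allowed. Small RNA had been sequenced from male cells of Day 6 embryoid bodies, the aggregates in which primordial germ cell-like cells (mPGCLCs) are induced from mouse embryonic stem cells. E14 (129/Ola strain, without a reporter) and BG5 (C57BL/6J/DBA/129, Blimp1-GFP reporter) each gave 2 mPGCLC and 2 non-PGCLC libraries, the latter made from the surrounding embryoid body cells. SGET (B6CBA/129), which carries reporters for Stella (GFP) and Esg1 (tdTomato), contributed 2 non-PGCLC libraries, and mPGCLCs of SGET and in vivo PGCs were not analysed here.

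Each line stands for its own strain background, reporter and, per the study's methods, its own mPGCLC gate, so these cannot be told apart. Those gates were Ssea1 with Cd61 for E14 and Ssea1 with Blimp1-GFP for BG5, while the labels give the SGET gate for all samples. Each line is a single mESC line, so differences between lines have no replication across lines of 1 strain. Libraries held 7421061 to 14444567 mapped reads, of which 15.02% to 34.5% fell on miRNA arms. A distinct sequence of moderate abundance typically carried 38.1 to 239 reads in a library, so reads are not independent molecules and an arm with few reads can stand for very few of them. Intervals and floors below cover counting error only.

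Animal miRNA hairpins are cut from a primary transcript by Drosha and then by Dicer, which leaves a 5p and a 3p arm of which usually 1 is retained by an Argonaute protein. The first bases of the arm, the seed, direct target choice, so a changed 5′ end changes the seed while a changed 3′ end does not. The 3′ end can be trimmed by exonucleases or lengthened by nucleotidyl transferases that add A or U. The cluster is best known from photoreceptors, inner ear hair cells and other sensory cells, where its miRNAs accumulate as the cells mature, and a seed mutation of miR-96 causes progressive hearing loss.

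All 3 hairpins are on the minus strand of GRCm38, in the order Mir183, Mir96, Mir182 of transcription. Mir183 lies at chr6:30169668-30169737, Mir96 at chr6:30169446-30169551 and Mir182 at chr6:30165918-30165992. Mir183 and Mir96 are 116 bp apart, and Mir182 follows after a gap of 3453 bp. GENCODE places no exon or intron of another gene over them. The nearest genes are the long non-coding RNA Rncr4, 3156 bp away on the plus strand, and the protein-coding gene Nrf1, whose end is 12460 bp away.

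The RefSeq mature sequences show how alike the 5p arms are, with the seed (bases 2 to 8) in capitals.
mmu-miR-183-5p: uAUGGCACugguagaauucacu
mmu-miR-96-5p: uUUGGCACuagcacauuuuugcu
mmu-miR-182-5p: uUUGGCAAugguagaacucacaccg
mmu-miR-183-3p: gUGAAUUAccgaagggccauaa
mmu-miR-96-3p: cAAUCAUGuguagugccaauau
mmu-miR-182-3p: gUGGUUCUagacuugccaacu
No member shares its whole seed with another member. Without gaps, miR-182-5p and miR-183-5p match at 18 of 22 bases, while miR-96-5p matches them at 12 of 23 and 13 of 22. Among 1679 RefSeq mature miRNAs, the seed of miR-96-5p is also that of mmu-miR-1271-5p, which had 0 reads in all 10 libraries, an upper limit of 0.208 to 0.404 RPM (reads scaled to a library total of 1000000) at 3 reads. The reference miR-182-5p is 25 nt long, against 22 nt for miR-183-5p.

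The read forms that carry most of the 3′ variation are shown next as sequenced, as DNA letters, with bases past the RefSeq end in capitals. Each Mir182-5p form is the most frequent of its length over the 10 libraries, and the pair after it gives the other common ends at 26 nt.
Mir182-5p, 23 nt: tttggcaatggtagaactcacac
Mir182-5p, 24 nt: tttggcaatggtagaactcacacc
Mir182-5p, 25 nt: tttggcaatggtagaactcacaccg
Mir182-5p, 26 nt: tttggcaatggtagaactcacaccgA
Mir182-5p, 26 nt, ending in U: tttggcaatggtagaactcacaccgT
Mir182-5p, 26 nt, as in the hairpin: tttggcaatggtagaactcacaccgG
Mir183-5p, 22 nt: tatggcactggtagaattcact
Mir183-5p, 23 nt: tatggcactggtagaattcactG
Mir183-5p, 24 nt: tatggcactggtagaattcactGA
The last base of the 23-nt Mir183-5p form continues the hairpin, whereas the final A of the 24-nt form does not.

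Mir182-5p and Mir183-5p made up nearly the whole cluster, with 53.9% and 44.8% of the cluster's 6-arm reads over all libraries. Mir96-5p, the middle member, held 0.563%, and Mir183-3p 0.725%. Mir182-3p and Mir96-3p had 692 and 721 reads in all, and were over 3 reads in 5 and 3 of the 10 libraries. The 3 hairpins of the cluster therefore differed widely in the reads they gave, and only 2 arms were deep enough for a description of their forms in every library.

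For Mir182-5p, the level was 8780 and 12111 RPM in E14 mPGCLC, 7536 and 6076 in E14 non-PGCLC, 7068 and 3990 in BG5 mPGCLC, 2411 and 2465 in BG5 non-PGCLC and 16778 and 20676 in SGET non-PGCLC. Both SGET libraries lay above all others and both BG5 non-PGCLC libraries below all others, and mPGCLC libraries lay above the non-PGCLC libraries of their own line without overlap. Ordered by mean, SGET non-PGCLC was followed by E14 mPGCLC, E14 non-PGCLC, BG5 mPGCLC and BG5 non-PGCLC, and of these neighbours only E14 non-PGCLC and BG5 mPGCLC overlapped. For Mir183-5p, it was 7176 and 9132 RPM in E14 mPGCLC, 4827 and 4806 in E14 non-PGCLC, 8656 and 3632 in BG5 mPGCLC, 3127 and 1768 in BG5 non-PGCLC and 15729 and 13475 in SGET non-PGCLC. The order of the groups was the same as for Mir182-5p except that BG5 mPGCLC, whose replicates differed most, stood above E14 non-PGCLC and overlapped both E14 groups.

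**Figure D1:**
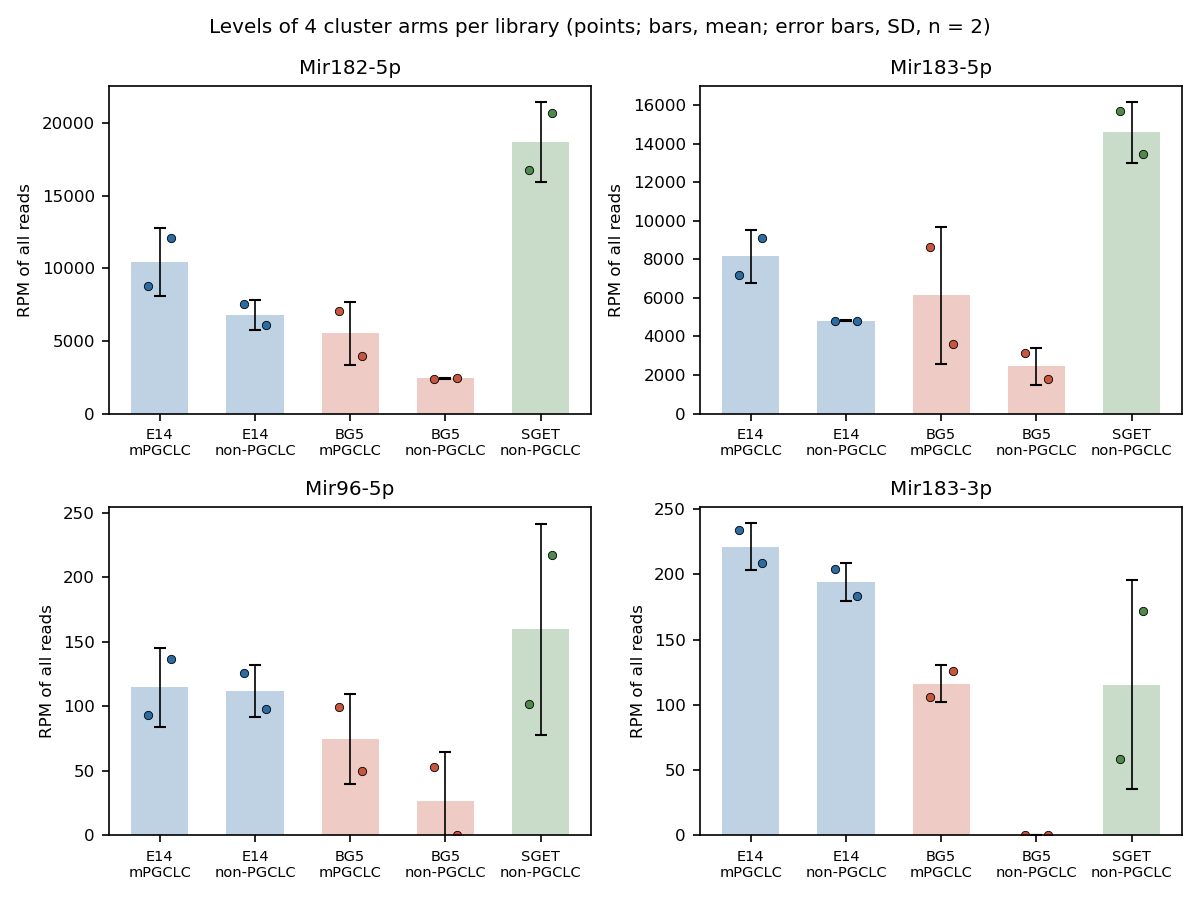
Levels of Mir182-5p, Mir183-5p, Mir96-5p and Mir183-3p in RPM of all reads (vertical axis), by group (horizontal axis). Points are libraries, bars the mean of 2 and error bars the SD, drawn from 0 upwards; SGET non-PGCLC is highest for both abundant arms and Mir183-3p is near 0 in BG5 non-PGCLC.

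Mir96-5p, which shares the first bases of its family but gave far fewer reads, had 92.7 and 136 RPM in E14 mPGCLC, 126 and 97.7 in E14 non-PGCLC, 99.4 and 49.9 in BG5 mPGCLC, 53.1 and 0 in BG5 non-PGCLC and 101 and 217 in SGET non-PGCLC. Every group overlapped at least 1 other. The 0 allows up to 0.208 RPM at 3 reads by counting error only. A typical sequence of that library carried 208 reads, so the true limit is looser. Its reads were 0.605% to 2.20% of those of Mir182-5p in the 9 libraries that had any. Each library held 4 to 11 distinct Mir96-5p sequences in those 9, so its levels rest on few sequences.

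Mir183-3p, the passenger side of the Mir183 hairpin, had 234 and 209 RPM in E14 mPGCLC, 204 and 184 in E14 non-PGCLC, 106 and 126 in BG5 mPGCLC and 58.5 and 172 in SGET non-PGCLC. BG5 non-PGCLC had 1 and 3 reads, although its Mir183-5p arm had 29560 and 25540. Per hairpin, the 3p share of Mir183 reads was 0.00338% and 0.0117% there, against 0.371% to 4.06% in the other 8 libraries. The pooled ratio of BG5 mPGCLC to BG5 non-PGCLC reads per total was 700 with a 95% exact counting interval of 273 to 2573.

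Both abundant arms were higher in mPGCLCs than in non-PGCLC cells over E14 and BG5, by 1.14 ± 0.17 (log2, SE) for Mir182-5p and 1.31 ± 0.18 for Mir183-5p (edgeR quasi-likelihood test, adjusted p = 7.7e-05 and 3.9e-05). With Mir183-3p at 5.03 ± 0.62 (adjusted p = 8.8e-06), 3 of the 6 arms passed, against 14.6% of the 562 arms tested, or 7.47% that passed as higher. The value for Mir183-3p came from BG5, where the non-PGCLC libraries held 4 of its reads, and within E14 it was at 0.036 ± 0.72 (edgeR adjusted p = 1). The median log2 change of the 6 arms was 1.24, against 0.16 over all arms tested. Mir96-5p did not pass at 1.16 ± 1.04 (adjusted p = 0.58). It passed only without BG5 non-PGCLC replicate 1 (6.26, edgeR adjusted p = 4.5e-07, and 12.7 within BG5), which leaves that group with the library at 0 reads, so these fitted changes give no size. These libraries are bulk samples, in which a larger share of cells with the cluster and more of it per cell cannot be told apart.

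The lines were next taken apart, and whether their effects differed in size depended on the scaling, as the direct test further on shows. Within E14, Mir182-5p was 1.53-fold and Mir183-5p 1.69-fold higher by mean RPM in mPGCLCs, but none of the 6 arms passed the edgeR test, where 2.85% of all arms did. The fitted log2 changes were 0.46 ± 0.24 (adjusted p = 0.46) and 0.59 ± 0.26 (adjusted p = 0.33). At an unadjusted p under 0.05, 1 of the 6 arms, Mir183-5p, was called by edgeR, and DESeq2 called 0 at its adjusted threshold, against 13.0% of all arms and 11.8% of the 474 arms that DESeq2 gave an adjusted p. As RPM of miRNA reads rather than of all reads, mean Mir182-5p was 31838 ± 9063 in E14 mPGCLC and 33221 ± 828 in E14 non-PGCLC (SD, n = 2), so the direction for this arm in E14 turned with the denominator. Mir183-5p kept its direction on that scale, at 24813 ± 5696 and 23822 ± 4129, by less than the spread of replicates.

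Within BG5, the same 3 arms passed as higher, against 14.1% of all arms, or 8.36% that passed as higher. Mir182-5p was higher in mPGCLCs by 1.83 ± 0.25 and Mir183-5p by 2.03 ± 0.26 (log2, SE; edgeR adjusted p = 2.4e-05 and 1.6e-05), and Mir183-3p passed as well (adjusted p = 1.7e-06). The 2 abundant arms were 2.27-fold and 2.51-fold higher by mean RPM, less than the fit gives because the fit scaled the BG5 non-PGCLC libraries by 1.90 and 1.26, against 0.720 to 1.13 for the other 8. Median log2 change over all arms was 0 with this scaling and -0.71 with total reads alone, and under total reads the changes were 1.18 (edgeR adjusted p = 0.017) and 1.33 (0.017).

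A direct test of BG5 against E14 effects gave log2 differences of 1.37 ± 0.34 for Mir182-5p and 1.43 ± 0.36 for Mir183-5p (SE; edgeR adjusted p = 0.017 and 0.020), and Mir183-3p passed with them, against 5.52% of all arms. Scaled to total reads alone these differences fell to 0.56 and 0.57 and did not pass (adjusted p = 0.65 and 0.72). Fitted on these 8 libraries alone they were 1.35 and 1.41 and did not pass either (both adjusted p = 0.050). Leaving out BG5 mPGCLC replicate 1, the Mir183-5p difference was 0.99 and did not pass (edgeR adjusted p = 0.073).

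**Figure D2:**
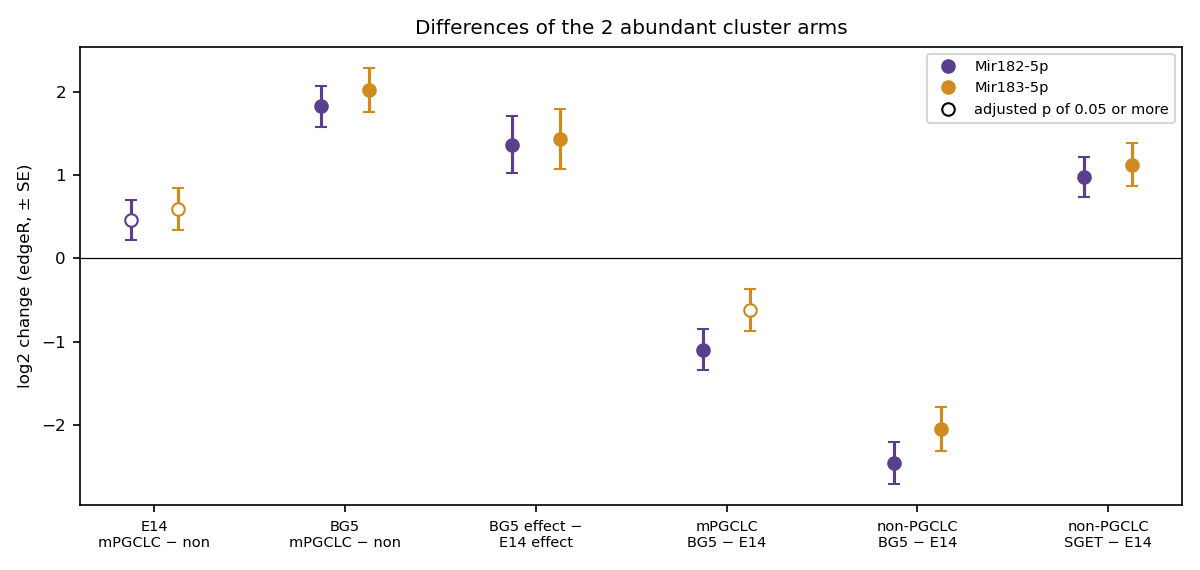
Log2 differences of Mir182-5p and Mir183-5p (vertical axis, edgeR estimate ± SE) for 6 comparisons (horizontal axis). Filled points have an adjusted p under 0.05 and open points do not; both arms lie above 0 within BG5 and for SGET against E14, and below 0 for BG5 against E14 non-PGCLC cells.

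The lines were also compared within each cell type. In mPGCLCs, only Mir182-5p of the 6 arms passed as different between BG5 and E14, at -1.10 ± 0.24 (log2 BG5 minus E14, SE; edgeR adjusted p = 0.0047), where 9.96% of all arms passed. Under total reads alone it was at -0.92 and did not pass (adjusted p = 0.10). Mir183-5p was at -0.62 ± 0.26 (edgeR adjusted p = 0.17), with overlapping replicates in RPM. As RPM of miRNA reads, mean Mir183-5p was 31956 ± 11005 in BG5 and 24813 ± 5696 in E14 mPGCLC (SD, n = 2), so its direction turned with the denominator. Mean Mir182-5p on that scale was 29504 ± 4163 in BG5 and 31838 ± 9063 in E14, closer together than in RPM of all reads and within the spread of replicates. Mir96-3p had 532 reads in E14 and 0 in BG5 mPGCLC and did not pass (edgeR adjusted p = 0.32). It passed in 2 of 19 alternatives, DESeq2's Wald test (adjusted p = 6.6e-08) and the samples compared (edgeR adjusted p = 0.047). With 0 reads in BG5, its fitted change gives no size.

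In non-PGCLC cells, BG5 had less than E14 of 3 arms, against 15.5% of all arms, or 7.47% that passed as lower. Mir96-5p was at -3.38 (edgeR adjusted p = 0.21) but passed as lower in 12 of 19 alternatives, among them DESeq2's Wald test (-4.06, adjusted p = 0.017). Mir182-5p was at -2.46 ± 0.25 and Mir183-5p at -2.05 ± 0.26 (log2 BG5 minus E14, SE; edgeR adjusted p = 1.2e-06 and 2.2e-05), and Mir183-3p passed as well. Under total reads alone Mir182-5p was at -1.48 (edgeR adjusted p = 0.0021) and with DESeq2's size factors at -3.11, so the size depends on the scaling. For Mir183-5p the call was lost under total reads alone, at -0.98 (adjusted p = 0.079), where the median of all arms was 1.11 rather than 0.064. SGET had more than E14 of 2 arms, against 4.63% of all arms, or 1.78% that passed as higher, with Mir182-5p at 0.98 ± 0.24 and Mir183-5p at 1.13 ± 0.26 (SE; edgeR adjusted p = 0.026 and 0.019). Fitted on these 4 libraries alone, both SGET calls were lost at differences no smaller than these, 1.10 and 1.26 (edgeR adjusted p = 0.071 and 0.068).

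The reads of 26 to 29 nt for which the cluster was chosen played little part in these levels. With reads of 18 to 25 nt alone, Mir182-5p was at 1.18 over both lines and at 1.88 within BG5 (log2; edgeR adjusted p = 2.9e-05 and 8.4e-06).

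Other miRNAs put the BG5 non-PGCLC libraries apart as well. The pluripotency miRNAs of the miR-290 and miR-302 clusters are abundant in embryonic stem cells and epiblast. The list named Mir292a, which GENCODE vM21 calls Mir292, so its counts and sums held this hairpin only once it was added after the data were seen. With it the list summed to 8200.1 to 9412 RPM in BG5 non-PGCLC, against 53418 to 224466 RPM in the other 8 libraries, and without it to 2808 to 3768 against 22251 to 60076 RPM. Mir292-5p alone made up 1.46% to 2.19% of miRNA reads in BG5 non-PGCLC and 17.5% to 43.6% in the others, so levels per miRNA read move with it. The sum with Mir292 was 93734 to 135273 RPM in E14 non-PGCLC, below the 196797 to 224466 RPM of E14 mPGCLC. It was 146031 to 161396 RPM in SGET non-PGCLC and 53418 to 76336 RPM in BG5 mPGCLC. Mesenchyme miRNAs (miR-199, miR-214, miR-143 and miR-145) summed to 18015 to 28673 RPM in BG5 non-PGCLC and to 307 to 2226 RPM in the other 8. Their part in the lower cluster level of BG5 non-PGCLC was not tested. Over E14 and BG5, 12 of 20 listed pluripotency arms tested, without Mir292, passed as higher in mPGCLCs and 0 as lower (median log2 change 2.14), against 7.47% of all arms that passed as higher. Within E14 0 of the 20 passed (median 0.51), where 2.85% of all arms did. Within BG5 13 passed as higher (median 4.02), against 8.36% of all arms that passed as higher. With Mir292 added, 14 of 22 passed as higher over both lines (median 2.12), 0 within E14 and 15 within BG5. Of 8 mesenchyme arms 0 passed as higher and 5 as lower, against 7.12% of all arms that passed as lower.

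Epithelial miRNAs, the miR-200 family with miR-203 and miR-205, gave 3 of 10 arms higher and 0 lower over both lines, with a median log2 change of 1.34, against 7.47% of all arms that passed as higher. Within E14 0 of these 10 passed, where 2.85% of all arms did. Within BG5 4 passed, all higher, against 8.36% of all arms that passed as higher. The test of the difference between lines called 0 of them, where 5.52% of all arms passed. Mir200b-3p, known to repress the Zeb factors, was at 1.52 ± 0.25 (log2, SE; edgeR adjusted p = 0.00026), and Mir205-5p at 3.005 ± 0.44 (edgeR adjusted p = 6.5e-05). Of 12 sensory and neural arms 1 passed as higher, a share near that of all arms. It was Mir7-1-5p merged with its identical copy Mir7-2-5p, at 1.10 ± 0.22 (edgeR adjusted p = 0.0013). Endothelial and blood, muscle, neural and liver markers gave 0 calls among 5, 2, 4 and 1 arms, and summed to at most 193, 232, 310 and 26.7 RPM in any library. Mir451a and Mir144 of the endothelial and blood list matched no hairpin name, so these counts and sums leave them out.

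The arms whose levels ran most like Mir182-5p over the 10 libraries, by Pearson's r of log2(RPM + 1), were Mir293-5p (0.95), Mir7-1-5p with Mir7-2-5p (0.94), Mir295-5p (0.94), Mir871-3p (0.93) and the merged Mir465 3p arms (0.93). Mir183-5p, of the same cluster, had 0.94, while Mir96-5p had 0.69. These are descriptions over libraries that share depth and denominator. Mir182-5p reads ran from 0.771 to 1.56 times those of Mir183-5p, with both extremes in non-PGCLC libraries, so the ratio did not follow the cell type.

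The length of Mir182-5p was the reason for its choice, and its values follow as a description. Among reads of 26 to 29 nt with a 5′-U, it made up 6.97% and 10.3% in E14 mPGCLC, 6.34% and 3.63% in E14 non-PGCLC, 10.5% and 6.72% in BG5 mPGCLC, 3.19% and 4.83% in BG5 non-PGCLC and 16.8% and 18.02% in SGET non-PGCLC. Both SGET libraries were highest, as for the level of the arm itself. At the edges of the window, Mir182-5p had 942 reads of 18 nt and 482 of 29 nt inside it, and 342 of 17 nt and 30 of 30 nt or more outside it.

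The most frequent length of Mir182-5p was 25 nt in every library, with 35.4% to 57.1% of its reads, while 24 nt held 16.05% to 21.2% and 23 nt 7.62% to 20.6%. The reads of 26 nt were 6.58% to 14.08% of the arm, whereas those of 27 to 29 nt were 0.706% to 1.89%. Among 165 arms with at least 100 reads in every library, its mean length was the third longest, with a median over libraries of 24.4 nt against 22.2 nt for the median arm.

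**Figure D3:**
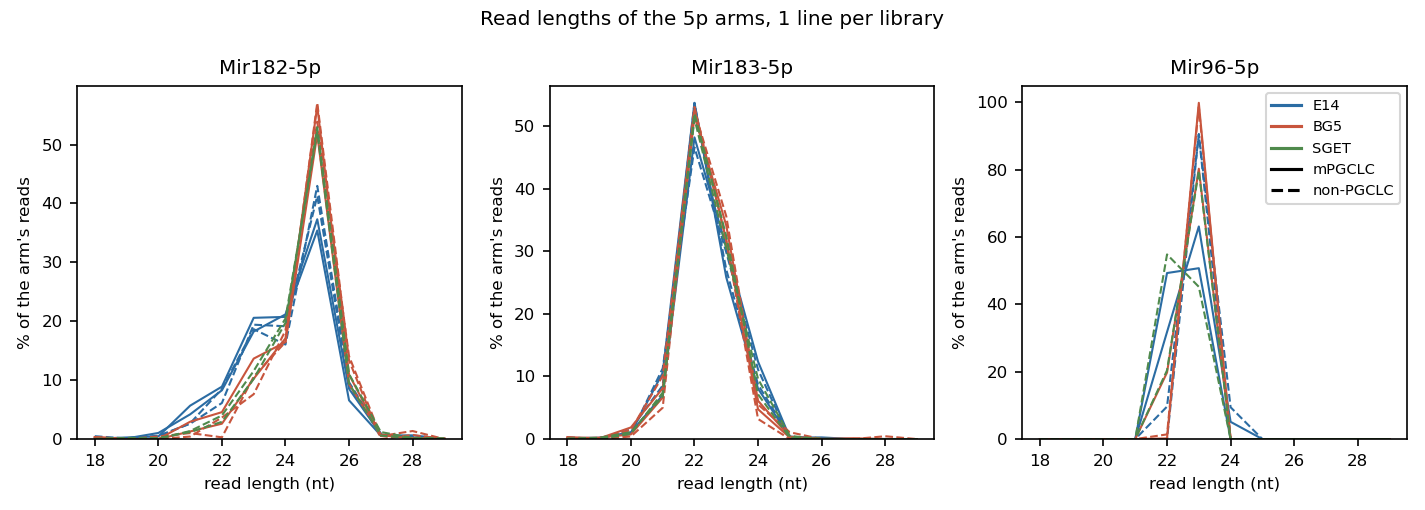
Read length (horizontal axis, nt) against percent of the arm's reads (vertical axis) for the 3 5p arms, with 1 line per library, coloured by mESC line, solid for mPGCLC and dashed for non-PGCLC. Mir182-5p peaks at 25 nt, with the E14 libraries lower there and higher at 22 and 23 nt, Mir183-5p peaks at 22 nt in every library, and Mir96-5p, with 0 reads in 1 library, peaks at 23 nt in all but 1.

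The share of Mir182-5p reads of 25 nt or more went mainly with the line. Within E14 and within BG5 it was also higher in the non-PGCLC libraries, without overlap. It was 43.3% and 46.8% in E14 mPGCLC and 53.7% and 51.5% in E14 non-PGCLC, but 62.0% and 68.4% in BG5 mPGCLC, 71.2% and 69.9% in BG5 non-PGCLC and 62.3% and 65.5% in SGET non-PGCLC. All 6 BG5 and SGET libraries lay above all 4 E14 libraries. Among the 165 arms 0.606% did so, Mir182-5p alone, but the median arm had 0% of its reads at such lengths, so few arms could, and nothing is read from that share. The E14 reads instead ended early: 45.8% to 56.1% stopped before the RefSeq end in E14, against 27.1% to 36.2% in BG5 and 33.7% to 36.1% in SGET.

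**Figure D4:**
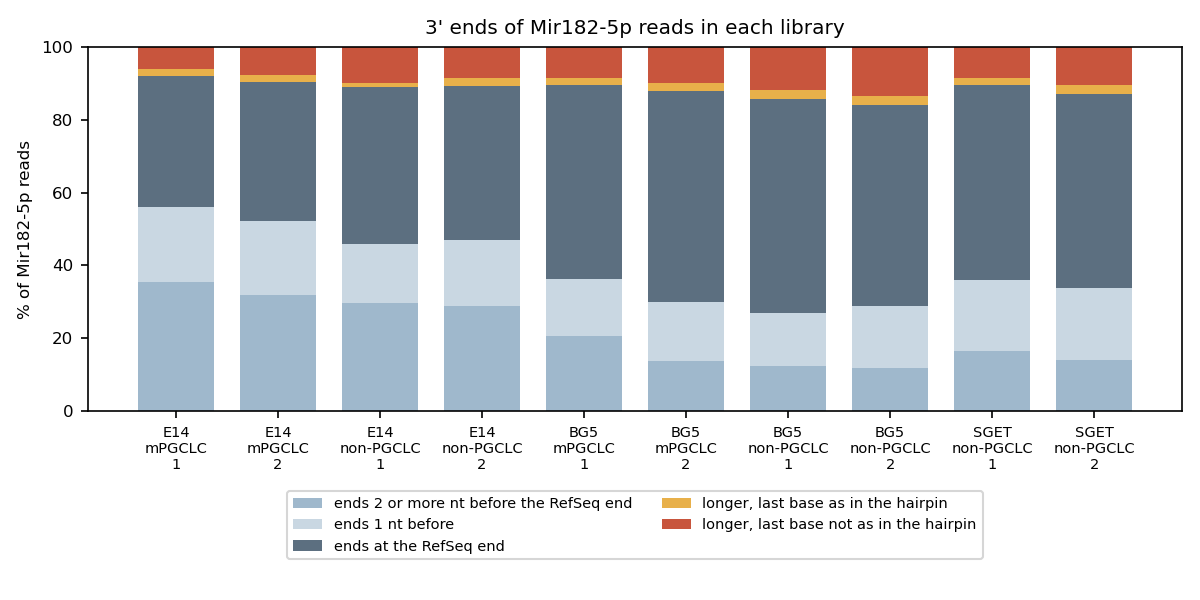
Percent of Mir182-5p reads (vertical axis) by where they end relative to the RefSeq 3′ end, as stacked bars for each library (horizontal axis, group and replicate number). The 4 E14 bars hold the most reads that end early, and the reads that pass the RefSeq end are mostly ones whose last base is not that of the hairpin.

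Extension past the RefSeq 3′ end of Mir182-5p averaged 8.85% ± 1.20 (SD, n = 2) in E14 mPGCLC, 10.8% ± 0.118 in E14 non-PGCLC, 11.2% ± 1.09 in BG5 mPGCLC, 15.1% ± 1.28 in BG5 non-PGCLC and 11.7% ± 1.86 in SGET non-PGCLC. BG5 non-PGCLC was above all other libraries, and the other 8 ran from 8.003% to 12.98%. Of all 26-nt reads of the arm with the reference start, 48.4% ended in A, 35.8% in U, 14.6% in G and 1.18% in C, where G is the base of the hairpin. The A share ran from 35.1% to 59.5% and the U share from 24.3% to 46.4%, and U exceeded A in 3 of the 10 libraries: both of BG5 mPGCLC and E14 non-PGCLC replicate 1.

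Reads whose last base left the hairpin were 9.57% ± 1.42 of Mir182-5p in the 4 mPGCLC and 12.6% ± 1.90 in the 4 non-PGCLC libraries of E14 and BG5 (SD). The difference of -3.03 percentage points rests mostly on reads of 26 nt or more, which the choice of the cluster used, so it is a description with no test. It was -2.21 within E14 and -3.86 within BG5, but -0.367 over both lines when only reads of 20 to 25 nt were counted. Over libraries the median non-templated share of Mir182-5p was 10.9%, near the 12.3% of the median arm among 165. The read mapping allowed at most a pair of mismatches, so reads with more unmatched bases than that were lost before counting.

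Mir183-5p was extended more often but by a base of its own hairpin. Of its reads, 45.8% to 65.0% ended past the RefSeq 3′ end, 37.4% to 55.1% with the templated base. Counted from its own most frequent end, which is 1 base further, extension was 10.04% to 19.1%. Non-templated ends were 4.62% to 11.2%, for the greater part a single A (4.51% to 8.99% of reads), with a single U at 0.0135% to 0.829% and longer tails at 0.0274% to 2.27%, a different mixture from that on Mir182-5p. Its mPGCLC and non-PGCLC libraries of E14 and BG5 had 8.81% ± 2.10 and 8.53% ± 2.61 (SD, n = 4), and the exact permutation test gave p = 0.91 (adjusted 1).

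Mir183-5p also had a second start. The common forms with each start follow, with bases 2 to 8 in capitals to show the seed each would carry.
Mir183-5p, RefSeq start: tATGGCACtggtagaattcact
Mir183-5p, start 1 base later: aTGGCACTggtagaattcactg
The seed of the later start, UGGCACU, belongs to none of the 1679 RefSeq mature miRNAs.

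Reads with the later start were 22.3% and 23.5% of Mir183-5p in E14 mPGCLC and 22.6% and 21.5% in E14 non-PGCLC. They were 33.1% and 33.9% in BG5 mPGCLC, 32.1% and 30.6% in BG5 non-PGCLC and 30.9% and 30.8% in SGET non-PGCLC. No E14 library reached the level of any BG5 or SGET library, while the cell types of E14 overlapped and the mPGCLC libraries of BG5 lay above its non-PGCLC libraries by less than they lay above any E14 library. Counting reads with any start other than the usual one, all 6 BG5 and SGET libraries lay above all 4 E14 libraries for 1.21% of the 165 arms, and Mir183-5p was 1 of those 2 arms.

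Between cell types, the share of Mir183-5p with another start differed by 1.30 percentage points (two-sided exact permutation test, 4 against 4 libraries, p = 0.66, adjusted 0.99), or by 0.736 within E14 and 1.87 within BG5. Over the alternatives it ran from -0.957 to 3.51, so its direction is not settled. These tests permute libraries across both lines, which differed far more in this share than the cell types did, so this p says little about the cell type. Mir182-5p kept its start more strictly, with 1.19% to 3.86% at another base and a difference of 0.414 points, or -0.022 to 5.65 over the alternatives (exact permutation test, p = 0.54, adjusted 0.99). The Mir183-5p reads with the later start ended 1 base past the RefSeq end in 44.6% to 65.8% of cases, against 27.9% to 44.5% for those with the reference start. Their mean length was 21.9 to 22.1 nt, against 22.4 to 22.7 nt, so a later start went together with a later end within every library.

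**Figure D5:**
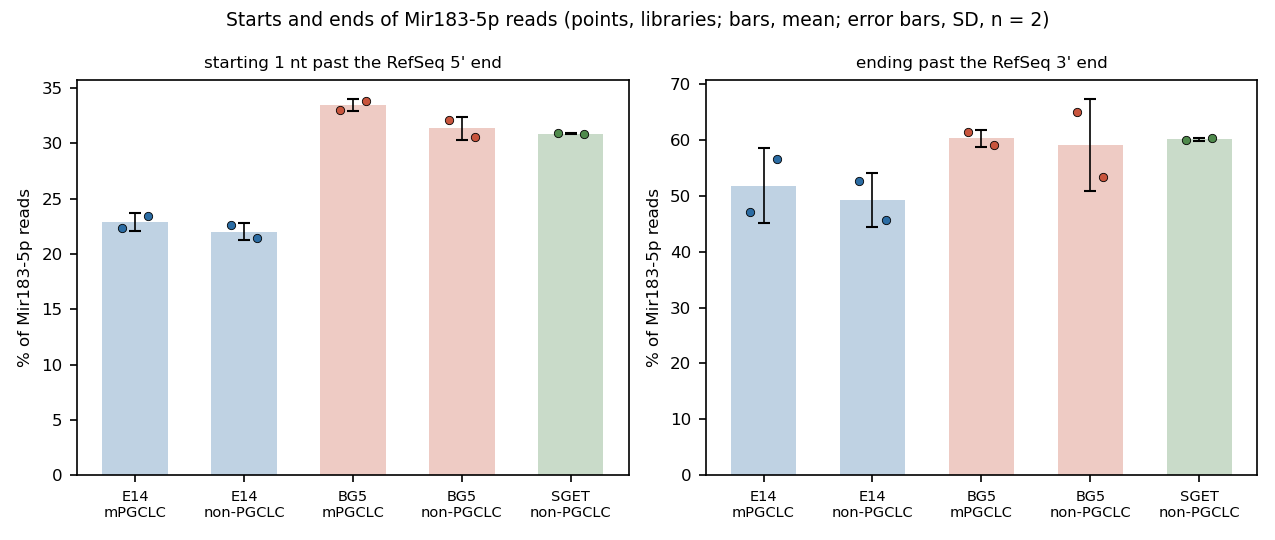
Percent of Mir183-5p reads (vertical axes) that start 1 nt past the RefSeq 5′ end (left) or end past the RefSeq 3′ end (right), by group (horizontal axes). Points are libraries, bars the mean of 2 and error bars the SD; on the left the 4 E14 libraries lie at 21.5% to 23.5% and the other 6 at 30.6% to 33.9%.

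Mir96-5p varied mainly in whether its last base was present. Of its reads 72.3% were 23 nt and 25.8% were 22 nt over all libraries, and none was longer than 24 nt. Extension was found in 2 of the 9 libraries with reads, E14 mPGCLC replicate 2 at 5.11% and E14 non-PGCLC replicate 2 at 9.44%, all with the hairpin's own base. A start 1 base later was found in E14 mPGCLC replicate 1 at 8.21% and SGET non-PGCLC replicate 1 at 12.9%, and in none of the other 7. Its non-templated and start shares gave p = 0.34 (adjusted 0.99) and p = 1 (adjusted 1) by the exact permutation test of 4 against 3 libraries, since 1 library had no read.

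Mir183-3p, too, did not start where RefSeq places it: 85.8% of its reads began 1 base later and 12.4% at the RefSeq base. Its most frequent read, with 42.1% of the arm, was found in all 10 libraries.
Mir183-3p: tgaattaccgaagggccataaa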

How the data were processed

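Small RNA of 10 libraries, 5 groups of 2 replicates taken from the sample labels, was analysed. The deposited values are raw counts, which the authors made per library as a list of distinct read sequences with the reads of each. The labels and methods give cutadapt 3.2, removal of random adapter bases (not used to collapse PCR copies) and end-to-end mapping to GRCm38 with STAR 2.5.3a with few mismatches. Merged runs of separate instruments were not told apart in the deposited counts.

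Reads of 18 to 29 nt were assigned to GENCODE vM21 hairpins by an exact sense match of the first 18 nt. RefSeq gave mature ends for 1007 of 1174 hairpins, and arms that could not be told apart were merged, leaving 772. Levels are reads scaled to a library total of 1000000 (RPM). A read was non-templated when its last base differed from the hairpin. The 562 arms passing filterByExpr were fitted with edgeR 4.0.16 (quasi-likelihood test, TMM, R 4.3.3) over all 10 libraries, with Benjamini-Hochberg adjustment over these arms and a threshold of 0.05. Read shares of 4 mPGCLC and 4 non-PGCLC libraries were compared by exact permutation, adjusted over 6 tests. The labels do not say whether replicates came from separate cultures, so p-values measure only the spread between these libraries.

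Replicates differed by more than sampling noise in every group. The code was tested on simulated data: for the cell-type comparison it recovered 34% of 200 arms changed 8-fold among 562 at the spread of these libraries, with 0 false calls, and 99.5% with 6 false calls at a dispersion of 0.1. Alternatives were other scalings, filters and read windows, DESeq2 1.42.0, the replicate block, fits on fewer groups and each library left out. Named arms were all 6 member arms, arms sharing a member's seed, the 5 most like Mir182-5p, and the most abundant of each list. The members and lists were chosen with earlier results of these data known.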

Additional observations from a re-analysis of the deposited data

Results flagged for a closer look

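The cell-type effects on Mir182-5p, Mir183-5p and Mir183-3p differed between lines by an edgeR test of the difference itself, with BG5 minus E14 effects of 1.37, 1.43 and 9.997 on the log2 scale. Scaled to total reads alone the first 2 were 0.56 and 0.57 and did not pass (edgeR adjusted p = 0.65 and 0.72), nor did they on the samples compared (both adjusted p = 0.050), and Mir183-5p did not without BG5 mPGCLC replicate 1 (0.99, adjusted p = 0.073). The value for Mir183-3p rests on the 4 Mir183-3p reads of BG5 non-PGCLC.

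A Mir182 fragment that belongs to neither arm was found in E14 mPGCLC replicates 1 and 2 at 43.1 and 23.4 RPM, or 357 and 188 reads, and in 0 reads of each of the other 8 libraries, where 3 reads would be 0.208 to 0.404 RPM. It fills exactly the loop between the arms, hairpin positions 32 to 49.
Mir182 loop: gtaaggtaatgggacccg
Reads from Mir96 outside its arms, at its 3′ side, were found in E14 non-PGCLC replicate 1 at 11.7 RPM (87 reads) and in E14 mPGCLC replicate 2 at 9.45 RPM (76 reads), each a single sequence.

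In groups of 4 libraries, 2 values stood far from the other 3. The non-templated share of Mir183-5p was 4.62% in BG5 non-PGCLC replicate 2, and Mir96-5p reads with another start were 8.21% in E14 mPGCLC replicate 1. The rule marks about 1 group in 20 by chance for normal values of 1 population, whereas these groups pool 2 lines. For Mir96-5p the other 3 values were 0, so any value above 0 would have been marked and the rate does not hold.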

How the results depend on the processing

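Of the counts of arms called (adjusted p under 0.05), DESeq2's Wald test gave more in every comparison than the quasi-likelihood test: 145 against 82 over both lines, 56 against 16 within E14, 120 against 79 within BG5, 97 against 31 for the difference between these effects, 101 against 56 between mPGCLC lines, and 157 against 87 and 80 against 26 for BG5 and SGET against E14 non-PGCLC cells. The E14 count was 8 with total reads alone, 37 without a filter, 26 with the replicate block and 4 on the samples compared. The count for the difference of effects was 53 with DESeq2's size factors, and that for SGET against E14 was 8 on the samples compared. With each library left out in turn, counts ran from 14 to 39 within E14, 33 to 58 for the difference of effects and 30 to 59 for SGET against E14, the highest counts being without BG5 non-PGCLC replicate 2 for E14 and without SGET non-PGCLC replicate 1 for the other comparisons. Counting from the most frequent end, extension of Mir183-5p was 16.1% in E14 mPGCLC, 15.5% in E14 non-PGCLC, 11.7% in BG5 mPGCLC, 11.9% in BG5 non-PGCLC and 14.3% in SGET non-PGCLC. The alternative for Mir182-5p and Mir96-5p is the same end.

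Within E14, Mir183-5p passed in 4 of 19 alternatives, without a filter (log2 0.70, edgeR adjusted p = 0.026), without BG5 non-PGCLC replicate 1 (0.56, 0.030) or replicate 2 (0.59, 0.011) and without SGET non-PGCLC replicate 2 (0.70, 0.045). On the samples compared, the difference of effects did not pass for Mir182-5p (1.35) or Mir183-5p (1.41, both adjusted p = 0.050). Between mPGCLC lines, Mir183-5p passed in 7 of 19 alternatives, among them without BG5 mPGCLC replicate 1, at -1.06 (edgeR adjusted p = 0.0034). Mir182-5p, Mir183-5p and Mir183-3p kept direction and call in all 19 alternatives over both lines and within BG5. Replicate numbers did not pair the libraries: deviations from group means correlated at -0.04 in E14 and 0.03 in BG5. The replicate block changed no call of Mir182-5p, Mir183-5p or Mir183-3p, while Mir96-5p passed under it for BG5 against E14 non-PGCLC cells (-3.68, edgeR adjusted p = 0.031). The difference in non-templated share between cell types ran over the alternatives from -3.66 to -0.367 percentage points for Mir182-5p and from -1.02 to 2.45 for Mir183-5p. Exact tests of such shares have a smallest adjusted p of 0.17 for 1 share alone and say nothing about stability. Low read numbers limit Mir96-5p, Mir96-3p and Mir182-3p.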
